A study of Mus musculus with 31 samples.

Results

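The mRNAs of mouse embryonic stem cells (mESCs) that lack *Ago2* were compared between cells with and without the Trim71 binding site in the *Ago2* mRNA. The comparison used 8 RNA-seq libraries of the series' 31 samples, 4 of *Ago2* KO/CLIPΔ mESCs and 4 of *Ago2* KO mESCs, and it covered the 10956 of 15034 listed genes whose mean over these 8 libraries was at least 1 TPM, the unit that scales a gene's reads for transcript length and library total. CLIPΔ stands for a deletion on both alleles of the site in the *Ago2* 3′UTR that Trim71 occupies in UV crosslinking and immunoprecipitation (CLIP), and *Ago2* KO stands for a knockout made with a pair of guides within the gene. The genotypes were made with CRISPR/Cas9 and selected as clones, more than 1 for CLIPΔ, in E14-derived mESCs that carry a FLAG tag on the endogenous Trim71, which all groups share, and the cells were grown under conditions that hold mESCs in the ground state. The series also holds 2 WT and 2 CLIPΔ RNA-seq libraries, small RNA libraries of the same 4 genotypes and Trim71 CLIP-seq. The labels call the libraries of a genotype biological replicates and do not say which clone or culture each came from, so the p-values measure the spread between these libraries.

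Ago2 is the Argonaute protein that, loaded with a microRNA (miRNA), finds matching sites in mRNAs and lowers their stability and translation. Trim71, also known as LIN-41, is an RNA-binding protein of stem cells and early embryos that represses mRNAs by binding hairpins in their 3′UTRs. The let-7 family of miRNAs promotes differentiation and is scarce in mESCs, and its targets include *Trim71* itself and the genes *Lin28a*, *Lin28b*, *Hmga2* and *Myc*. In cells that still have Ago2, removing a repressive site from its 3′UTR could change Ago2 output and with it the repression by let-7. In *Ago2* KO mESCs, which were made to lack Ago2, the same deletion asks what differs between the lines apart from Ago2 output. Ago2 protein was not measured in the files analysed here.

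The guides are shown because they define both genotypes. Each is printed from 5′ to 3′ as its 20-base target followed by the genomic 3-base PAM in capitals, located on chromosome 15 of GRCm38, where *Ago2* lies on the minus strand.
CLIP-site guide 1: cctcacacccacccgcttgcTGG
CLIP-site guide 2: tctttctatcaagcgccgctCGG
*Ago2* knockout guide 1: ggggttccaataccagcggtTGG
*Ago2* knockout guide 2: gatccttggttacccgatccTGG
Both CLIP-site guides lay in exon 19 of 19, within the 3′UTR, at chr15:73103583-73103602 on the minus strand and chr15:73103464-73103483 on the plus strand. Their cut sites were 105 bases apart and enclosed the Trim71 CLIP peak at chr15:73103539-73103543. The knockout guides lay in introns, at chr15:73123243-73123262 on the minus strand and chr15:73124083-73124102 on the plus strand. Their cut sites were 854 bases apart and enclosed exons 10 and 11, which hold 123 and 134 coding bases.

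*Ago2* mRNA (chr15:73095844-73184935) was low in both genotypes. It was 1.67, 1.85, 1.97 and 2.29 TPM in *Ago2* KO libraries 1 to 4, and 1.51, 1.72, 2.87 and 2.60 TPM in *Ago2* KO/CLIPΔ libraries 1 to 4. In the WT and CLIPΔ libraries it ranged from 20.3 to 28.2 TPM, so the 8 knockout libraries held on average 8.48% of that level. The KO groups overlapped, with means of 1.95 ± 0.26 and 2.18 ± 0.66 TPM (SD, n = 4 each) and a two-sided exact permutation p of 0.54, where 0.0286 is the smallest p that 4 against 4 libraries allow. On the log2(TPM + 1) scale used for every difference below, which understates changes of genes at a few TPM, *Ago2* KO/CLIPΔ minus *Ago2* KO was 0.09 ± 0.09 (SE, limma adjusted p = 0.55).

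Other members of the machinery differed little. *Ago1*, the Argonaute with the highest level left, was at 39.1 ± 2.4 TPM in *Ago2* KO and 44.1 ± 5.0 TPM in *Ago2* KO/CLIPΔ mESCs (difference 0.16, adjusted p = 0.19). *Ago3*, *Ago4* and *Lin28b* were under the 1 TPM minimum, and *Sox2* has no row in the table analysed here. *Trim71* was at 25.4 ± 2.5 and 24.7 ± 1.8 TPM (difference -0.04, adjusted p = 0.80). *Lin28a*, which blocks let-7 maturation, was at 96.9 ± 24 and 84.9 ± 16 TPM (difference -0.17, adjusted p = 0.052). *Cdkn1a*, the cell-cycle inhibitor p21, was at 239 ± 17 and 258 ± 9.9 TPM (difference 0.12, adjusted p = 0.067). The pluripotency factors *Nanog* (702 and 667 TPM) and *Pou5f1* (3229 and 3113 TPM) had differences of -0.07 and -0.05 that did not pass the test. None of the 15 tested genes of miRNA processing and let-7 maturation passed limma's adjusted threshold (4 had an unadjusted p under 0.05, and 1 was called under TMM scaling). Of the 8 tested silencing-complex genes 1 was higher and 1 lower (12.5% each, against 5.14% and 11.5% of all genes). *Mov10*, an RNA helicase, rose by 0.30 and *Tnrc6a*, the scaffold that recruits deadenylases, fell by 0.32. The difference of *Tnrc6a* was -0.54 in libraries 1 and 2 and -0.10 in libraries 3 and 4. None of the 8 was called with libraries 1 and 2, and libraries 3 and 4, averaged within each genotype.

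Across all genes, 1824 of 10956 passed an adjusted p of 0.05 (16.6%), of which 563 were higher (5.14%) and 1261 lower (11.5%) in *Ago2* KO/CLIPΔ mESCs. The test was limma's moderated test with a term for the replicate pair, numbers 1 and 2 against numbers 3 and 4. The differences were mostly small, with a median size of 0.29 among the called genes, and 31 reached a size of 1 (5 higher, 26 lower). The groups of 4 did not overlap for 1075 of the called genes, against 1460 of all tested genes (13.3%). The split between higher and lower depended on the scaling. The median gene differed by -0.05, and TMM scaling, which removed that shift, gave 896 higher and 760 lower calls.

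The count depended on how replicates were treated. Libraries of the same genotype and pair were nearly alike (Pearson's r across genes 0.9974 to 0.9986, median size of the gene-wise difference 0.063), whereas libraries of the same genotype in the other pair differed by a median of 0.173, as much as libraries of the other genotype in the same pair (0.164). What the pairs are, such as separate clones, days or sequencing runs, is not given in the sources used here. With the 2 libraries of each pair and genotype averaged and counted as 1 replicate, an alternative chosen after seeing the data, 253 genes passed (91 higher, 162 lower), and with no term for the pairs 353 did. Under all 21 alternatives, which change the scaling, the filter, the pseudocount, the block or the libraries used, 91 genes kept their call and direction (0.831% of those tested), 28 of them higher and 63 lower.

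Many genes did not differ by the same amount in the 2 pairs. The difference between the pairs itself passed for 4676 genes (42.7%), and for 3607 of these *Ago2* KO/CLIPΔ mESCs were higher in one pair and lower in the other. This test takes its spread from the 2 nearly alike libraries of each pair and genotype. If a pair is 1 culture, the count does not measure the spread between cultures. The median difference between genotypes was -0.13 in libraries 1 and 2 and 0.05 in libraries 3 and 4, and 3935 of the 4676 genes had the more positive difference in libraries 3 and 4. With each library centred on its median, 3877 genes passed and 1043 of these were the more positive in libraries 3 and 4, so the direction of this excess depended on the scaling. The 5 genes with the smallest p were *Ube2b*, *Peg10*, *B230219D22Rik*, *Tra2a* and *Nedd4*. *Nedd4*, a ubiquitin ligase, was between 86.4 and 90.5 TPM in all 4 *Ago2* KO libraries, and at 67.0, 68.0, 104 and 107 TPM in *Ago2* KO/CLIPΔ libraries 1 to 4. *Tra2a*, a splicing factor, was between 63.8 and 66.2 TPM in *Ago2* KO libraries, and at 51.4, 51.5, 79.3 and 81.2 TPM in *Ago2* KO/CLIPΔ libraries. For both genes the *Ago2* KO libraries sat between the lower and the upper pair of *Ago2* KO/CLIPΔ libraries, and neither passed the test on average (adjusted p = 0.76 and 0.96).

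Transcript length moved with the pairs. Among the 2723 genes whose longest transcript had at most 2049 bases the median difference was -0.07 in libraries 1 and 2 and 0.01 in libraries 3 and 4, and the pairs differed for 31.5% of genes. Among the 2721 genes with 4564 bases or more it was -0.18 and 0.10, and the pairs differed for 54.0% of genes. *Ago2* KO/CLIPΔ libraries 1 and 2 had 10692 and 10731 genes at 1 TPM or more, fewer than the 10925 to 11062 of the other 6. The part that length or RNA quality had in the results was not tested.

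**Figure D1:**
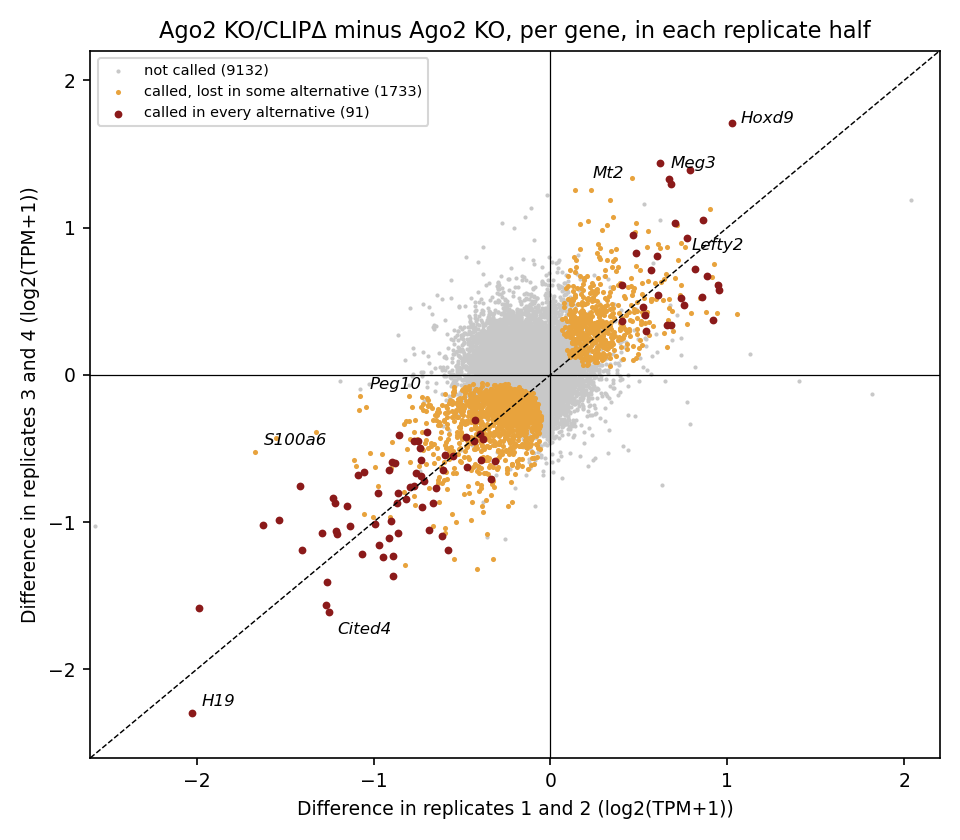
Difference between *Ago2* KO/CLIPΔ and *Ago2* KO mESCs for each of 10956 genes, on the log2(TPM + 1) scale, in replicates 1 and 2 (x axis) and replicates 3 and 4 (y axis). Dark red points are the 91 genes called under every alternative that tested them, orange points the other called genes, and grey points genes not called. The dashed line marks equal differences, and *H19* and *Cited4* lie near it at the lower left, whereas *Peg10*, *S100a6* and *Mt2* lie away from it.

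The imprinted RNA *H19*, a maternally expressed non-coding RNA on chromosome 7 (142575529-142578143), had the largest decrease on the log2(TPM + 1) scale. It was at 34.7, 32.98, 43.3 and 39.3 TPM in *Ago2* KO libraries, and at 7.57, 7.56, 7.497 and 7.72 TPM in *Ago2* KO/CLIPΔ libraries. Every *Ago2* KO/CLIPΔ library was far below every *Ago2* KO library, and the difference of -2.16 ± 0.07 (SE, adjusted p = 1.3e-06) was present in both pairs (-2.02 and -2.30). WT libraries held 91.0 and 59.2 TPM and CLIPΔ libraries 62.3 and 48.3 TPM, so with Ago2 present the same deletion went with a difference of -0.41 that did not pass (adjusted p = 0.30). That fit had no term for replicate 1 against replicate 2, although replicate 1 was the higher in both WT and CLIPΔ. This limit holds for each difference between CLIPΔ and WT given here.

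*Cited4*, a co-activator that binds CBP and p300, was at 281, 239, 162 and 174 TPM in *Ago2* KO libraries, and at 117, 99.9, 58.2 and 50.7 TPM in *Ago2* KO/CLIPΔ libraries (difference -1.43 ± 0.09, adjusted p = 6.0e-05). For *Cited4* the level in WT and CLIPΔ libraries, 25.3 to 38.1 TPM, was below that in both knockout genotypes. The *Ago2* KO and *Ago2* KO/CLIPΔ groups did not overlap, as the pick of the largest decreases required.

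*Sox3*, a transcription factor of the epiblast and neural lineage, fell from 35.7 ± 9.6 to 15.1 ± 3.4 TPM (difference -1.18 ± 0.10, adjusted p = 0.00018). *Krt18*, a keratin of simple epithelia, fell from 80.6 ± 16 to 35.7 ± 5.1 TPM (difference -1.14 ± 0.06, adjusted p = 2.9e-05). *Gli1*, the effector and standard target of Hedgehog signalling, was between 8.61 and 11.7 TPM in *Ago2* KO libraries and between 3.41 and 4.69 TPM in *Ago2* KO/CLIPΔ libraries (difference -1.14 ± 0.07, adjusted p = 6.0e-05). With Ago2 present *Gli1* differed by about as much, from 8.62 and 9.42 TPM in WT to 2.76 and 3.60 TPM in CLIPΔ libraries (difference -1.27, adjusted p = 0.00057). Among the other members of the 15 largest decreases were *Gm13889*, *Prss50*, *Bhlhe22*, *Egr4*, *AU015836*, *Ttyh3*, *Lor*, *S100a6* and *Slc38a5*, with differences from -1.42 to -1.09. Of the 15, *S100a6* alone lost its call under an alternative that tested it. Those with a mean under 5 TPM, such as *Egr4* and *Bhlhe22*, were not tested under the alternative with that minimum. Its level was 161, 178, 86.6 and 74.8 TPM in *Ago2* KO libraries and 48.6 to 56.8 TPM in *Ago2* KO/CLIPΔ libraries, which gave -1.67 in libraries 1 and 2 and -0.52 in libraries 3 and 4.

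Among called genes without overlap *Hoxd9*, a homeobox gene on chromosome 2 (74697727-74700208), had the largest increase on the log2(TPM + 1) scale. It was at 6.31, 5.72, 3.47 and 4.08 TPM in *Ago2* KO libraries, and at 13.3, 13.2, 14.1 and 15.1 TPM in *Ago2* KO/CLIPΔ libraries (difference 1.37 ± 0.13, adjusted p = 0.00038). The difference was 1.03 in libraries 1 and 2 and 1.71 in libraries 3 and 4. *Asmt*, which encodes the last enzyme of melatonin synthesis, was between 5.57 and 7.05 TPM in *Ago2* KO libraries, and at 11.6, 10.3, 19.6 and 19.7 TPM in *Ago2* KO/CLIPΔ libraries (difference 1.09 ± 0.12, adjusted p = 0.0007). *Lefty2*, a secreted inhibitor of Nodal signalling, was at 88.4, 85.6, 140 and 133 TPM in *Ago2* KO libraries, and at 143, 149, 260 and 250 TPM in *Ago2* KO/CLIPΔ libraries (difference 0.82 ± 0.05, adjusted p = 2.9e-05). *Lefty2* was higher in *Ago2* KO/CLIPΔ mESCs within each pair (0.74 and 0.90), although the pairs themselves were far apart. *Mt2*, a metal-binding metallothionein, rose from 1023 ± 386 to 1809 ± 124 TPM (difference 0.90 ± 0.16, adjusted p = 0.0056), with 0.46 in libraries 1 and 2 and 1.34 in libraries 3 and 4.

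The other members of the 15 largest increases among called genes without overlap had differences from 0.78 to 1.03. They were *Meg3*, *Rian* and *Mirg*, treated with the imprinted genes, the Ets factor *Spic*, the X-linked *Magea4*, *1700013H16Rik* and *E530001F21Rik*, the mitochondrial import gene *Timm8a2*, and the histone genes *Hist1h2bj*, *Hist1h2bb* and *Hist1h1b*. Histone genes share near-identical sequence and mostly lack poly(A) tails, so their values are uncertain. *Spic*, *Lefty2*, *Mt2*, *E530001F21Rik* and the 3 histone genes lost their call under at least one alternative.

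**Figure D2:**
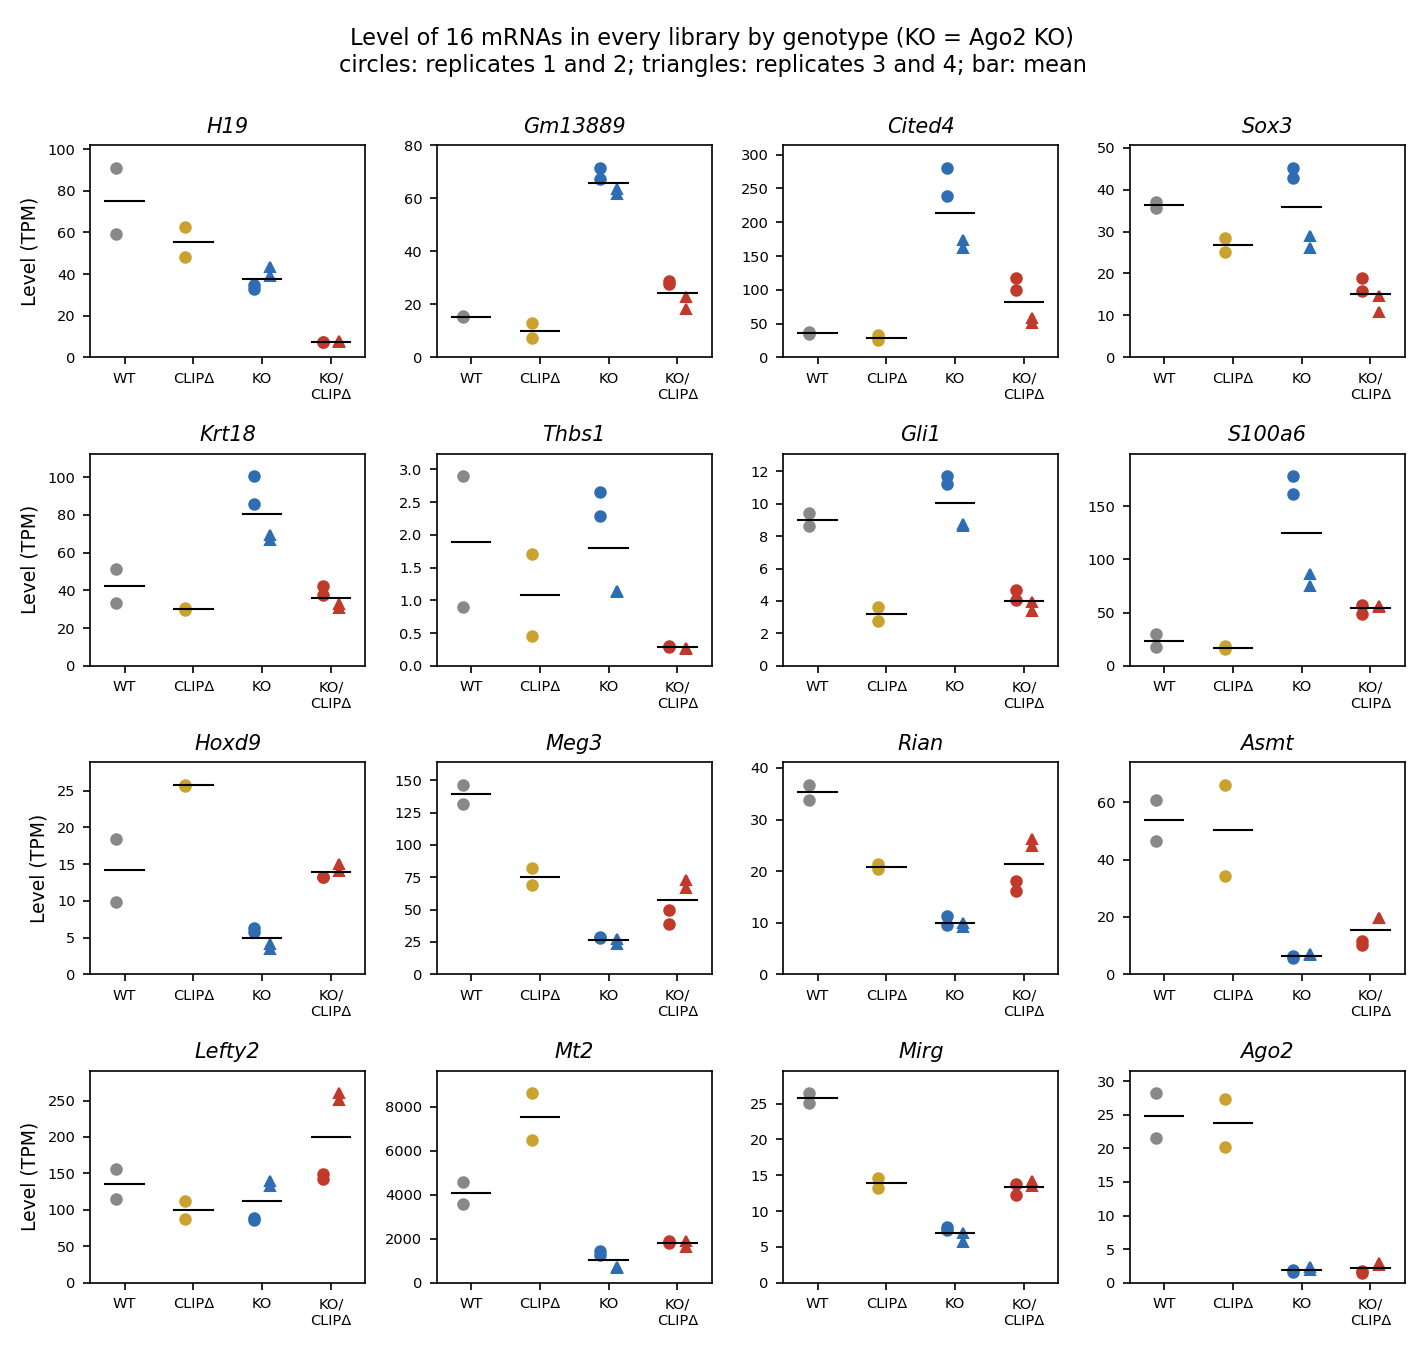
Level in TPM (y axes, starting at 0) of 16 mRNAs, by genotype, with KO standing for *Ago2* KO. Circles are replicates 1 and 2, triangles replicates 3 and 4, and bars the group means. *H19* falls to between 7.497 and 7.72 TPM in *Ago2* KO/CLIPΔ libraries, *Meg3*, *Rian* and *Mirg* rise there above *Ago2* KO libraries, and *Ago2* is near 2 TPM in both knockout genotypes.

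Imprinted genes, which are expressed from one parental allele, included some of the clearest calls. Of 22 tested, 4 were higher and 7 lower, against 5.14% and 11.5% of all genes. The 4 that rose were *Meg3*, *Rian*, *Mirg* and *Rtl1*, neighbours in the *Dlk1*-*Dio3* domain on chromosome 12 (109541001-109749460). *Meg3*, a maternally expressed non-coding RNA, was at 29.1, 27.9, 23.3 and 27.3 TPM in *Ago2* KO libraries, and at 39.3, 49.99, 73.1 and 66.7 TPM in *Ago2* KO/CLIPΔ libraries (difference 1.03 ± 0.16, adjusted p = 0.0031). *Rian*, which hosts small nucleolar RNAs and miRNAs, rose from 10.01 ± 0.96 to 21.4 ± 5.0 TPM (difference 1.00 ± 0.13, adjusted p = 0.0015). *Mirg*, a miRNA host RNA, rose from 6.92 ± 0.91 to 13.4 ± 0.86 TPM (difference 0.87 ± 0.09, adjusted p = 0.00061). For each of these RNAs the 4 *Ago2* KO/CLIPΔ libraries lay above the 4 *Ago2* KO libraries, which the rule that picked them required. *Rtl1*, named here after its values were seen, rose from 2.22 to 4.16 TPM. It is paternally expressed and lies on the opposite strand, and whether reads were counted by strand is not stated, so its reads cannot be told apart from those of the maternal antisense RNA. *Dlk1*, the paternally expressed gene at the domain's edge, was at 1.88 TPM in both genotypes.

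With *Ago2* intact the differences of the same RNAs were negative. *Meg3* was at 147 and 132 TPM in WT libraries and at 82.3 and 68.7 TPM in CLIPΔ libraries, a difference of -0.88. *Rian* differed by -0.73 and *Mirg* by -0.84 between CLIPΔ and WT, and of the 3 only *Mirg* passed there (adjusted p = 0.0072, against 0.062 for *Meg3* and 0.057 for *Rian*). The difference between the 2 effects passed for *Meg3* (1.90, adjusted p = 0.009), *Rian* (1.73, adjusted p = 0.0051) and *Mirg* (1.71, adjusted p = 0.00097), although not in replicates 1 and 2 alone with the number as a block, where no gene passed. Levels of *Meg3* were highest in WT, intermediate in CLIPΔ and *Ago2* KO/CLIPΔ, and lowest in *Ago2* KO libraries.

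Of the 7 imprinted genes that fell, *H19* has been described. *Cdkn1c*, an inhibitor of cyclin-dependent kinases, fell from 10.1 ± 3.5 to 5.27 ± 0.97 TPM (difference -0.78, adjusted p = 0.0029), and *Ndn* from 61.2 ± 11 to 41.9 ± 13 TPM (difference -0.57, adjusted p = 0.0018). *Peg10*, a retrotransposon-derived gene, was at 449, 459, 330 and 358 TPM in *Ago2* KO libraries, and at 209, 222, 311 and 310 TPM in *Ago2* KO/CLIPΔ libraries. Its difference was -1.07 in libraries 1 and 2 and -0.15 in libraries 3 and 4. *Phlda2* (-0.77), *Peg12* (-0.42) and *Mest* (-0.19), named after their values were seen, completed the group.

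A run of neighbouring genes on chromosome 5 was lower together. The genes were ordered by position and scanned after the values were seen. Of 10702 windows of 9 neighbouring tested genes, the window from *Lfng* to *Slc29a4* (140607320-142722490) had the lowest median difference, -0.83, and the lowest among windows that did not touch it was -0.36. The 9 genes were *Lfng*, *Ttyh3*, *Iqce*, *Brat1*, *Gna12*, *Foxk1*, *Ap5z1*, *Wipi2* and *Slc29a4*, and their functions have little in common: *Lfng* modifies Notch receptors, *Gna12* encodes a G protein subunit, *Foxk1* a forkhead factor and *Wipi2* an autophagy protein. All 9 passed, with adjusted p of at most 0.0014, and 8 kept their call under every alternative that tested them. The run was picked from these same values, so its low median and its calls are a description and not a test. *Tnrc18*, next to *Slc29a4*, was called lower as well, so the unbroken run of lower calls held 10 genes.

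In *Ago2* KO/CLIPΔ mESCs these genes were at 39.4% to 57.5% of their mean level in *Ago2* KO mESCs, with a median of 48.3%. Set against *Ago2* KO libraries of the same pair, single libraries ranged from 35.3% to 60.6%. *Wipi2* was at 27.6, 26.1, 26.0 and 24.6 TPM in *Ago2* KO libraries, and at 14.2, 14.3, 14.3 and 13.8 TPM in *Ago2* KO/CLIPΔ libraries. *Brat1*, linked to the response to DNA breaks, was between 32.6 and 36.0 TPM in *Ago2* KO libraries and between 14.8 and 18.2 TPM in *Ago2* KO/CLIPΔ libraries. The pairs, which differed for 42.7% of all genes, did not differ by the test for *Wipi2* (-0.86 and -0.80) or *Iqce* (-0.77 and -0.76).

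The 8 tested genes on each side were at 76.0% to 157% of *Ago2* KO, and 3 of these passed, *Mafk* (-0.31), *Rbakdn* (0.63) and *Tnrc18*, the gene next to *Slc29a4*, at 81.6% of *Ago2* KO (-0.28). In CLIPΔ libraries the 9 genes were at 46.9% to 119% of WT, with a median of 85.9%, where the lowest was *Ttyh3*. The difference between the effects with and without Ago2 passed for *Wipi2* (-0.93, adjusted p = 0.0041), *Gna12* and *Slc29a4* in the 12 libraries, and for no gene in replicates 1 and 2 alone with the number as a block. No copy-number measurement was analysed here, and the part that the number of gene copies has in these levels was not tested.

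**Figure D3:**
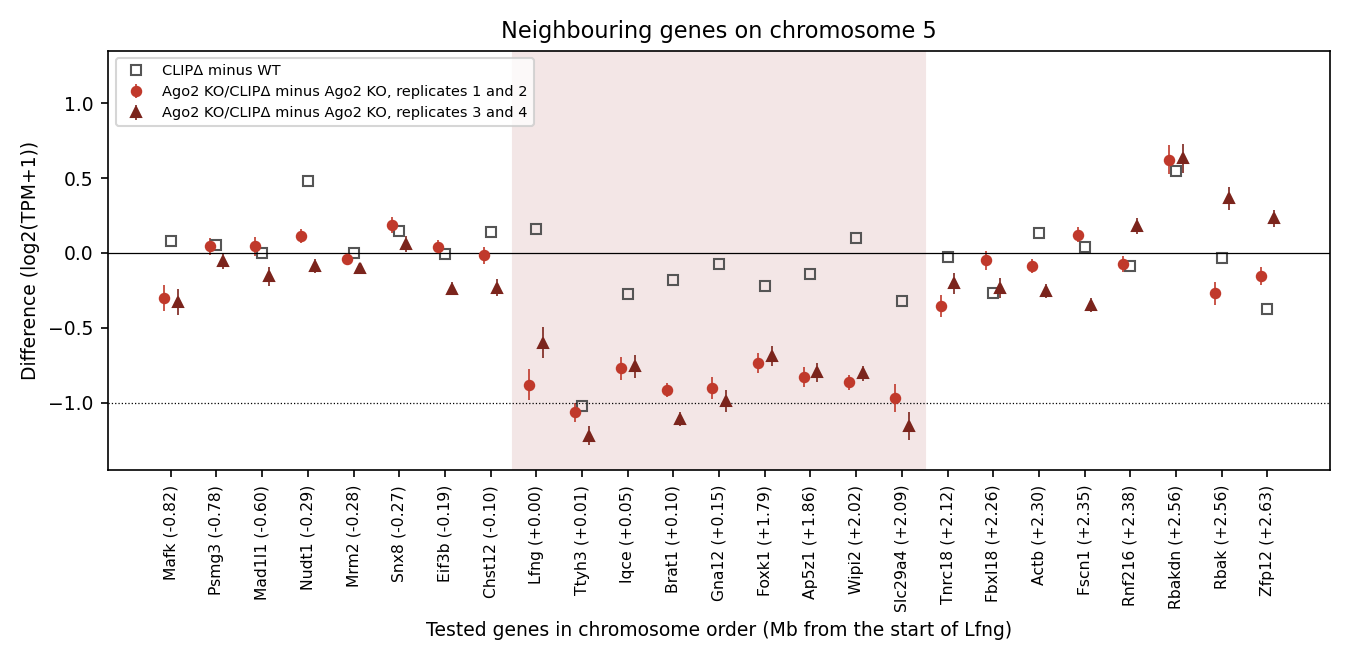
Difference on the log2(TPM + 1) scale (y axis) of 25 neighbouring tested genes on chromosome 5 in order of position, with the distance from the start of *Lfng* in Mb beside each name. Red circles and dark triangles are *Ago2* KO/CLIPΔ minus *Ago2* KO in replicates 1 and 2 and in replicates 3 and 4 (bars, SE), and open squares CLIPΔ minus WT. The 9 shaded genes lie between -0.60 and -1.22 in both pairs, the dotted line marks a difference of -1, and the circles and triangles of the flanking genes lie between -0.35 and 0.63.

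The median difference lay between -0.09 (chromosome 3) and -0.02 (chromosome 13) for the autosomes and the X chromosome. Chromosome 3 had 17 higher and 86 lower calls among 490 genes, where 5.14% and 11.5% of all genes were called. Its median difference was -0.22 in libraries 1 and 2 and 0.03 in libraries 3 and 4, against -0.13 and 0.05 for all genes. Near *Ago2* itself, the 6 other tested genes within 1 Mb (*Trappc9*, *Chrac1*, *Ptk2*, *Dennd3*, *Slc45a4* and *Ptp4a3*) had differences from -0.23 to 0.08, and none passed. *Chrac1*, which overlaps the 3′ end of *Ago2* on the other strand, was at 76.2 ± 6.6 and 75.9 ± 4.5 TPM.

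Targets of let-7 were examined because let-7 is the family through which a change in Ago2 would be read. The 9 mature members found in the table share the seed GAGGUAG, bases 2 to 8, in capitals in these examples.
let-7a-5p: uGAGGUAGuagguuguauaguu
let-7g-5p: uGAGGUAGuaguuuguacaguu
miR-98-5p: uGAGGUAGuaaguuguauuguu
The mRNA site complementary to the seed and followed by A is the 8mer CTACCTCA. It is shown in capitals with 11 bases on each side, in the strand of the mRNA and in GRCm38 coordinates, for 3 classical targets and for *Wipi2* of the chromosome 5 run.
*Hmga2*: acattcaatttCTACCTCAgcatcagttgg
*Igf2bp2*: acaaataaaagCTACCTCAggtgtttttta
*Lin28a*: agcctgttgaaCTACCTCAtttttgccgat
*Wipi2*: gtacgagaaccCTACCTCAcagggctgttg
These lie in the 3′UTRs at chr10:120364213-120364242, chr16:22059462-22059491 and chr4:134005178-134005207, all on the minus strand, and at chr5:142669561-142669590 on the plus strand. Mature miRNA sequences are from RefSeq (GRCm38.p6) and the sites from GENCODE M21 transcripts.

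mRNAs with a let-7 8mer did not move as a group. Of 448 tested genes with an 8mer in the longest 3′UTR, 21 were higher and 44 lower (14.5% called), against 16.6% of all genes, and their median difference was -0.04 against -0.05 for all genes. The 10091 genes whose 3′UTR lacks the 8mer had a median of -0.05 and 16.9% called. *Hmga2* (difference 0.13, adjusted p = 0.35) and *Lin28a* did not pass, and *Igf2bp2*, an RNA-binding protein, rose from 5.46 to 6.73 TPM (difference 0.25, adjusted p = 0.0498), named after its value was seen. The 106 tested genes with a Trim71 CLIP peak in the 3′UTR had 2 higher and 9 lower calls (10.4%) and a median of -0.07.

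Of 24 tested classical let-7 targets, 1 rose and 4 fell (4.17% and 16.7%, against 5.14% and 11.5% of all genes). The 4 were *Thbs1*, *Myc*, *Mycn* and *Hmga1*, and none of these has the 8mer in its longest annotated 3′UTR. *Hmga1* has 1 site there that matches the seed without the final A. Other kinds of let-7 site were not searched. *Thbs1*, the matrix glycoprotein thrombospondin-1, was at 2.65, 2.29, 1.14 and 1.13 TPM in *Ago2* KO libraries and between 0.255 and 0.305 TPM in *Ago2* KO/CLIPΔ libraries (difference -1.08 ± 0.13, adjusted p = 0.00089). Of the 5, *Thbs1* alone was called under every alternative that tested it. Its mean lay under 5 TPM, so the alternative with that minimum did not test it. *Myc* fell from 57.5 ± 17 to 41.2 ± 10 TPM (difference -0.46, adjusted p = 0.0012). The 9 members of the let-7 family made up 0.411% to 0.491% of all miRNA values in the 4 *Ago2* KO small RNA libraries and 0.352% to 0.403% in the 4 *Ago2* KO/CLIPΔ libraries. The means of 0.444% ± 0.037 and 0.379% ± 0.026 (SD, n = 4 each) differed with a two-sided exact permutation p of 0.0286, the smallest these numbers allow. This test had no term for the pairs, although *Ago2* KO/CLIPΔ libraries 1 and 2 held 0.399% and 0.403% and libraries 3 and 4 held 0.352% and 0.360%. None of 10 targets of the miR-290 and miR-302 families, the main miRNAs of mESCs, passed limma's adjusted threshold or was called under TMM scaling, and 5 had an unadjusted p under 0.05.

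Genes of protein synthesis and of amino acid supply were higher more often than the 5.14% of all genes. Of 82 cytoplasmic ribosomal protein genes 32 were higher and 1 lower, with a median difference of 0.14 against -0.05 for all genes. The leading ones were *Rpl39l* (0.64), *Rps29* (0.39), *Rpl34* (0.35) and *Rps19* (0.23). *Rpl39l* is a near copy of *Rpl39*, so reads may be split between them. With the pairs averaged, 2 ribosomal protein genes were called higher and 1 lower. These are short transcripts, and short transcripts as a class were called more often in both directions. Of those with at most 2049 bases 8.63% were higher and 13.9% lower, against 3.38% and 6.84% of those with 4564 or more. The median difference of both classes was -0.04.

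Of 27 tested genes of the ATF4 response to amino acid stress, 8 were higher and 0 lower, and 4 were called with the pairs averaged. Their median was 0.02 in libraries 1 and 2 and 0.26 in libraries 3 and 4. *Nupr1*, a stress-induced chromatin protein, was at 38.2, 41.1, 134 and 110 TPM in *Ago2* KO libraries, and at 68.2, 77.6, 248 and 260 TPM in *Ago2* KO/CLIPΔ libraries (difference 0.96 ± 0.08, adjusted p = 0.00013). Within each pair both *Ago2* KO/CLIPΔ libraries were higher, although the genotypes overlapped when the pairs were pooled. *Chac1*, which degrades glutathione, rose by 0.57, *Trib3* by 0.37 and *Sars*, the seryl-tRNA synthetase, by 0.36. Of 78 genes of the respiratory chain and ATP synthase 14 were higher and 3 lower (17.9% and 3.85%, against 5.14% and 11.5% of all genes), with a median of 0.01 in libraries 1 and 2 and 0.11 in libraries 3 and 4, led by *Ndufc1* (0.34) and *Cox7c* (0.47). With the pairs averaged 1 was called, as higher.

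Chaperones were lower more often than the 11.5% of all genes. Of 21 tested genes of ER and heat stress 10 were lower and 1 higher, with a median of -0.19. *Hspa5*, the ER chaperone BiP, fell from 1030 to 828 TPM (difference -0.32, adjusted p = 0.0007), and *Hspa8* (-0.29), *Hsph1* (-0.37) and *Dnajb1* (-0.29) of the cytosolic heat shock system also fell. With the pairs averaged 3 were called. ERK-responsive genes gave 5 lower of 14, with a median of -0.37 in libraries 1 and 2 and -0.05 in libraries 3 and 4. Under TMM scaling 5 were lower and 2 higher, and with the pairs averaged 3 were lower. Of these, *Phlda1* fell from 111 to 61.8 TPM (difference -0.81, adjusted p = 0.00045), and *Dusp4* and *Dusp5*, phosphatases that switch off MAP kinases, fell by 0.48 and 0.47. Of 25 genes of the p53 response 7 were lower and 0 higher, led by the kinase *Plk2* (-0.82), whereas *Cdkn1a* did not pass. Under TMM scaling 3 of them were lower and 1 higher. Cell-cycle regulators gave 7 lower of 27, among them the cyclins *Ccna2* (-0.36) and *Ccnb1* (-0.21) and the kinase *Aurka* (-0.22), and 3 of the 27 were called lower under TMM scaling.

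Genes of the primed and formative states, which follow naive pluripotency, had 7 lower and 1 higher of 13 (53.8% and 7.69%, against 11.5% and 5.14% of all genes), with a median of -0.29. With the pairs averaged 4 were lower and 1 higher. Beside *Sox3*, the claudin *Cldn6* fell from 41.1 ± 3.9 to 26.3 ± 3.1 TPM (difference -0.63, adjusted p = 8.4e-05), *Foxd3* by 0.57 and *Dnmt3l* by 0.33. *Pou3f1* (-0.29, adjusted p = 0.062) and *Dnmt3a* (0.19, adjusted p = 0.086) did not pass. Of 24 core and naive pluripotency genes 2 rose and 6 fell (8.33% and 25.0%; 1 and 2 with the pairs averaged), led by *Nr0b1* (-0.40), *Utf1* (-0.32), *Tcl1* (0.43) and *Fbxo15* (0.31). Targets of BMP and Nodal were mixed. *Id1* (-0.38) and *Id2* (-0.98), targets of BMP, fell, and *Lefty2*, a target of Nodal, rose. Of the LIF and STAT3 genes *Pim1* rose from 120 to 169 TPM (difference 0.49, adjusted p = 0.00046), and *Junb* (-0.33) and *Klf4* (-0.24) fell.

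**Figure D4:**
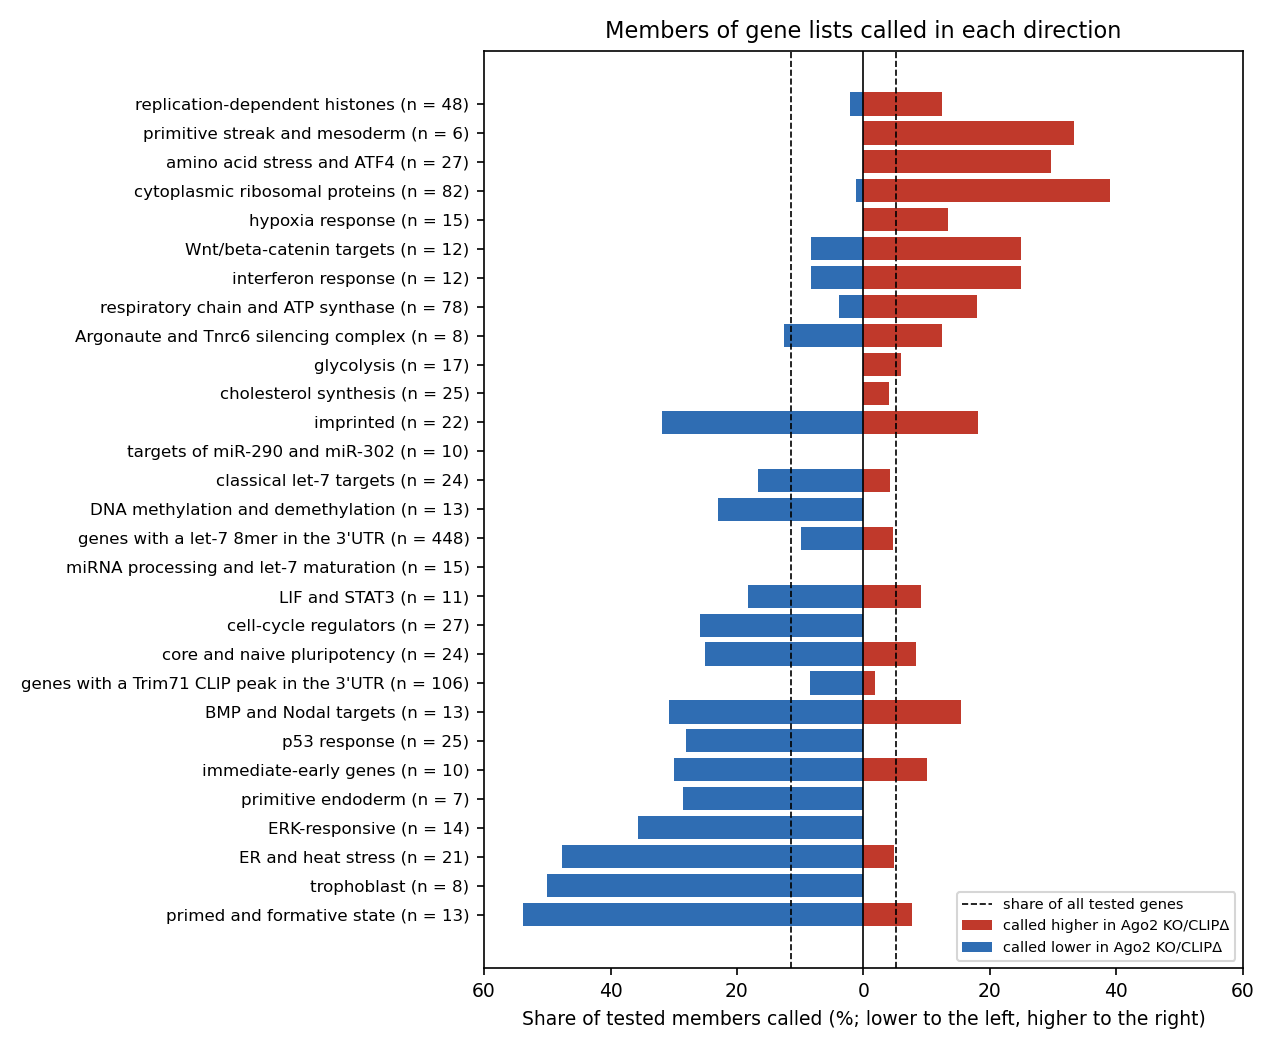
Share of members called, for each gene list with at least 6 tested members, as higher (red, to the right) or lower (blue, to the left) in *Ago2* KO/CLIPΔ mESCs, in percent, ordered by the list's median difference, with the number tested beside each name. Dashed lines mark the shares among all 10956 genes, 5.14% and 11.5%. Of the lists drawn, primed, trophoblast and chaperone lists reach furthest to the left, ribosomal protein genes furthest to the right, and those of miRNA processing and of miR-290 and miR-302 targets have no calls.

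Markers of mESCs dominated both genotypes. The 9 of 10 listed markers found summed to 12959 to 14153 TPM in *Ago2* KO libraries and 13058 to 15024 TPM in *Ago2* KO/CLIPΔ libraries. Of the 8 tested trophoblast markers 4 were lower (50% against 11.5% of all genes; 3 under TMM scaling and 2 with the pairs averaged), *Krt18*, *Esx1* (-0.97), *Gata3* (-0.47) and *Krt8* (-0.26), and the list summed to 207 to 282 TPM in *Ago2* KO and 148 to 193 TPM in *Ago2* KO/CLIPΔ libraries. Fibroblast-type markers, mostly *Vim* and *Fn1*, summed to 557 to 606 and 669 to 744 TPM. Of the 4 tested *Fn1* alone passed, as higher (0.45, 25% of the list against 5.14% of all genes). The difference of *Fn1* was 0.28 in libraries 1 and 2 and 0.61 in libraries 3 and 4, and it lost its call under some alternative. Primitive streak markers summed to 55.1 to 95.9 and 62.1 to 90.03 TPM. Of the 6 tested, *Gsc* (0.76) and *T* (0.46) were higher (33.3% against 5.14% of all genes), and 1 was called with the pairs averaged. The difference of *T* was 0.15 in libraries 1 and 2 and 0.78 in libraries 3 and 4. Primitive endoderm markers summed to 197 to 216 and 208 to 223 TPM. Of the 7 tested, *Sox17* (-0.43) and *Lamb1* (-0.25) were lower (28.6% against 11.5% of all genes), and none was called with the pairs averaged. *Lama1* (0.26) went the other way and did not pass. Neural markers summed to 167 to 180 and 128 to 175 TPM. Of the 3 tested, *Tubb3* (-0.32) was lower and *Nes* (0.29) higher (33.3% each, against 11.5% and 5.14% of all genes). Neither *Tubb3* nor *Nes* was called under TMM scaling or with the pairs averaged. Markers of the 2-cell-like state summed to 3.45 to 6.07 TPM in *Ago2* KO and 6.19 to 10.7 TPM in *Ago2* KO/CLIPΔ libraries, and their only tested member, *Usp17lb*, rose (0.75, adjusted p = 0.017). Germline markers summed to 4.59 to 6.20 and 3.202 to 6.94 TPM. The part of other cell types in these results was not tested, and fewer cells of a type and less RNA per cell cannot be told apart in bulk libraries.

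The 2 CLIPΔ and 2 WT libraries are separate from those of the knockout groups. Set beside them, the difference that went with the deletion was not the same with and without *Ago2* for 128 of 11287 genes (1.13%). The clone of each library is not given, so an effect of the deletion and a difference between lines cannot be told apart. The test used all 12 libraries with a term for replicates 3 and 4. With no such term 73 genes passed. In replicates 1 and 2 of the 4 genotypes alone, with the number as a block, 0 passed limma's adjusted threshold (lowest adjusted p 0.101, 895 genes with an unadjusted p under 0.05), a limit that holds for each difference of effects given here. Of the 128, 29 had the more positive difference without *Ago2* and 99 the more negative one, and 58 were also called between *Ago2* KO/CLIPΔ and *Ago2* KO. The 5 genes with the smallest p were *Ly6a*, *Bhmt*, *Smtnl1*, *Pou3f2* and *Msc*. *Ly6a*, the surface antigen Sca-1, rose from 109 and 113 TPM in WT to 432 and 338 TPM in CLIPΔ libraries, and was between 225 and 264 TPM in all 8 libraries without *Ago2*. *Msc*, a basic helix-loop-helix repressor, was between 170 and 192 TPM in *Ago2* KO and 99.1 to 119 TPM in *Ago2* KO/CLIPΔ libraries (difference -0.71), against 118 to 127 TPM in WT and 148 to 149 TPM in CLIPΔ libraries. *Pou3f2*, a neural POU factor, fell without *Ago2* (-0.87) and rose with it (0.93).

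Of the 1820 called genes measured in both, 69.8% had the same sign in CLIPΔ minus WT, against 60.3% of all genes. Across 10926 genes Pearson's r between the 2 differences was 0.29, given as a description, since genes are not replicates. Of the 162 genes that passed in both settings 139 had the same direction, among them *Gli1*, *Ttyh3*, *Gsc*, *Cldn6*, *Nr0b1* and *E530001F21Rik*.

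**Figure D5:**
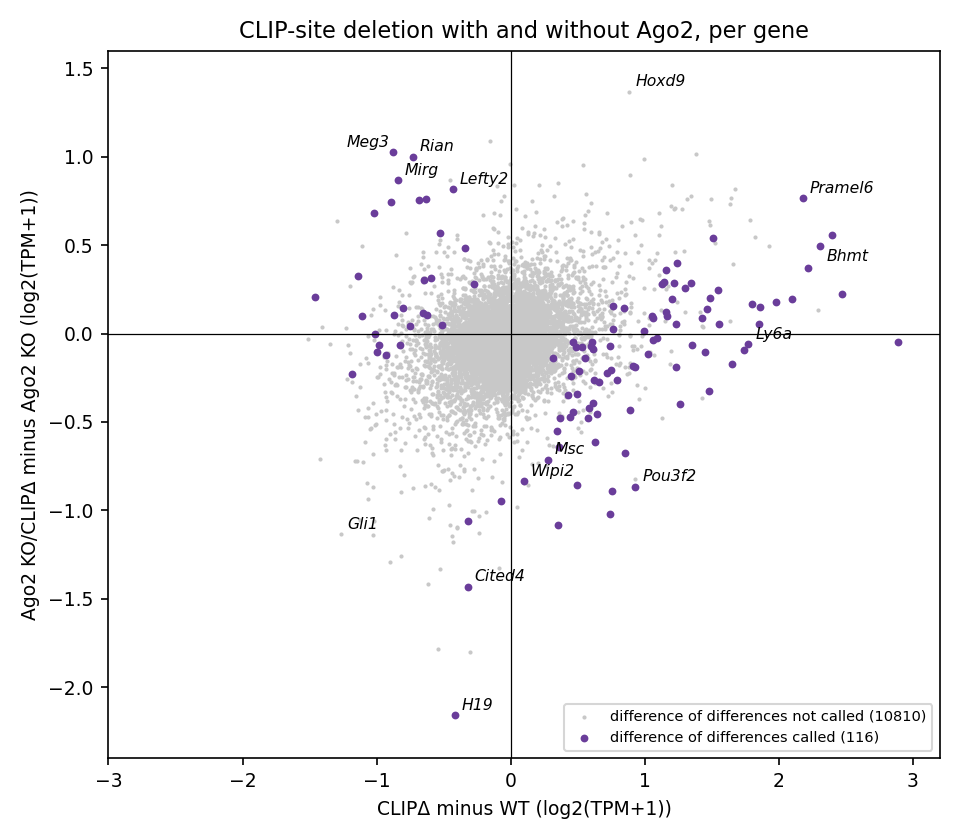
Difference of each gene on the log2(TPM + 1) scale between CLIPΔ and WT (x axis) and between *Ago2* KO/CLIPΔ and *Ago2* KO (y axis). Purple points are genes whose 2 differences were not equal by the test. *Meg3*, *Rian* and *Mirg* lie at the upper left, *H19* and *Cited4* at the bottom, and *Ly6a* at the right near a y value of 0.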

How the data were processed

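The authors trimmed reads with cutadapt, aligned them with HISAT2 2.1.0 to mm10 (GRCm38), counted them with HTSeq on the longest transcript of each gene, and deposited TPM values. Per the labels, small RNA values are also TPM, and Trim71 CLIP peaks are deposited with read counts, used here only for their genes. The table lists genes above 0 in every library. TPM keeps no depth, so depth is unknown and no counting interval was made.

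Genes averaging 1 TPM or more over the 8 libraries were tested on log2(TPM + 1) with limma 3.58.1 in R 4.3.3 (empirical Bayes with a trend, term for replicates 1 and 2 against 3 and 4, Benjamini-Hochberg adjustment over 10956 genes, threshold 0.05). All columns were mapped to labels, where the code d3 was read as CLIPΔ. Same-numbered libraries of the 2 genotypes deviated together (r = 0.32 to 0.43), but not after removing pair means (0.03 and -0.03), so the pair was the block. Scripts were tested on simulated data. TMM factors came from edgeR 4.0.16. Positions and 3′UTRs came from GENCODE M21 (10864 genes matched).

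The comparison, gene lists and members were chosen with earlier results of these data known. Named genes were a fixed set of Argonaute, let-7 and pluripotency genes, the 15 largest increases and decreases among called genes with no overlap and the same sign in both pairs, up to 4 called and 2 uncalled genes per list, genes within 1 Mb of *Ago2*, and the 5 smallest p of each interaction. No mitochondrially encoded gene was in the table tested. Some named genes are not reported here.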

Additional observations from a re-analysis of the deposited data

Results flagged for a closer look

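The largest pattern is that the difference between *Ago2* KO/CLIPΔ and *Ago2* KO mESCs was not the same in replicates 1 and 2 as in replicates 3 and 4 for 4676 genes. The test set this against the spread between the 2 libraries of a pair only. Among the genes named here, the difference in libraries 3 and 4 minus that in libraries 1 and 2, on the log2(TPM + 1) scale, was 0.39 for *Ago1*, 0.33 for *Ago2*, -0.27 for *H19*, 0.55 for *AU015836*, 1.15 for *S100a6*, 0.88 for *Mt2*, 0.66 for *Rian*, 0.82 for *Meg3*, 0.61 for *Asmt* and 0.68 for *Hoxd9*. It was 0.27 for *Ptk2*, -0.46 for *Ptp4a3*, 0.80 for *Ube2b*, 0.93 for *Peg10*, 0.72 for *B230219D22Rik*, 0.67 for *Tra2a* and 0.68 for *Nedd4*.

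The difference that went with the deletion was not the same without and with *Ago2* for 128 genes, where deletion and line cannot be told apart. The difference without *Ago2* minus that with it was -1.75 for *H19*, -1.11 for *Cited4*, 1.25 for *Lefty2*, 1.71 for *Mirg*, 1.73 for *Rian*, 1.90 for *Meg3*, -1.83 for *Ly6a*, -1.81 for *Bhmt*, -1.71 for *Smtnl1*, -1.80 for *Pou3f2* and -0.99 for *Msc*. No gene passed in replicates 1 and 2 alone with the number as a block.

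In some groups of 4 libraries a single value lay apart from the other 3 by Dixon's criterion, which chance meets in about 1 in 20 groups. Examples were *Pou5f1* at 3178 TPM in 1 *Ago2* KO/CLIPΔ library and *Ttyh3* at 23.8 TPM in 1 *Ago2* KO library. Such values were not limited to these genes: *Dusp4* was at 2.37 TPM in 1 *Ago2* KO/CLIPΔ library and at 1.81 TPM in the other 3. The number of groups screened is not given here.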

How the results depend on the processing

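The count of called genes, 1824 (563 higher, 1261 lower), rested on how replicates were treated. With no replicate block it was 353 (108 higher, 245 lower), with a replicate block by number 1 to 4 it was 804 (266 higher, 538 lower), with the 12 libraries in 1 fit 303 (101 higher, 202 lower), and with the means of each replicate pair 253 (91 higher, 162 lower). Replicates 1 and 2 alone gave 4161 (551 higher, 3610 lower), and replicates 3 and 4 alone 4207 (2503 higher, 1704 lower). TMM scaling gave 1656 (896 higher, 760 lower) and median centring 1556 (845 higher, 711 lower). Leaving out 1 library gave 1013 to 1500 calls (291 to 514 higher, 722 to 1024 lower). Without *Ago2* KO/CLIPΔ replicate 3 the count was 1013, and without *Ago2* KO replicate 4 it was 1171. Pseudocounts of 0.1 and 5, robust estimation and minima of 0 and 5 TPM kept the count between 1522 and 2042.

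The difference of *Ago2* was -0.078 in replicates 1 and 2 and 0.26 in replicates 3 and 4 (adjusted p = 0.048). Genes whose CLIPΔ difference was not the same with and without *Ago2* numbered 227 with no filter and 73 with no replicate block. They numbered 0 in replicates 1 and 2 with the number as a replicate block, where 895 had an unadjusted limma p under 0.05. The let-7 share differed by -0.076 to -0.050 percentage points with 1 library left out, where no p under 0.05 can be reached. *Zdbf2* (0.18), *Skil* (0.25), *B230219D22Rik* (0.31), *Tra2a* (0.32) and *Nedd4* (0.27), not called in the 8 libraries, were higher and called in replicates 3 and 4 alone. Of the 110 named genes that were called, 29 kept their call under every one of the 21 alternatives that tested them. None of the 110 turned direction in any. TPM gives no depth, so low genes such as *Thbs1* and *Egr4* have an unknown counting error. The cause of these shifts was not tested.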

Other observations

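Neighbouring genes were called together at other places, found after the values were seen. Of runs of at least 4 consecutive tested genes called in 1 direction, beside those on chromosomes 5 and 12, the one with the largest increase was in the *Hoxc* cluster on chromosome 15 (102936757-103017429). *Hoxc12* was at 23.7, 24.4, 27.6 and 27.9 TPM in *Ago2* KO libraries, and at 49.7, 45.0, 45.3 and 40.5 TPM in *Ago2* KO/CLIPΔ libraries. *Hoxc10* was between 2.36 and 2.47 TPM in *Ago2* KO libraries and between 3.84 and 5.42 TPM in *Ago2* KO/CLIPΔ libraries, and *Hoxc11* (0.65) and *Hoxc5* (0.38) were also higher. *Hoxc12* and *Hoxc10* kept their calls under every alternative that tested them. *Hoxc10* and *Hoxc5* overlap in the annotation, so reads may be shared.

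On chromosome 3 the epidermal genes *S100a16* (-0.38), *S100a6* (-1.10), *Lor* (-1.13) and *Sprr2b* (-0.87) were lower. *Sprr2b*, which encodes a small proline-rich protein of the cornified envelope, was between 15.9 and 21.7 TPM in *Ago2* KO libraries, and at 13.3, 12.7, 7.16 and 7.38 TPM in *Ago2* KO/CLIPΔ libraries. A run of 5 genes on chromosome 16, from *Pcyt1a* to *Fyttd1* and including the transferrin receptor gene *Tfrc*, had differences from -0.58 to -0.32.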
